A study of Drosophila melanogaster with 2 samples.

Results

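Binding of the CG7745 protein was examined at 10 genes that build and turn over the actin cytoskeleton, out of 13945 protein-coding genes on the main chromosome arms. They are chic, tsr, ena, dia, Act5C, Act42A, Arp2, Arp3, Myo61F and Myo31DF. The genes were chosen by name with the signals of the reproducible peaks known: chic and Myo61F hold 2 of the strongest peaks at promoters, and the other 8 are further actins and actin regulators from the same list of names. The counts and signals below therefore describe these genes and carry no test. The measurements are ChIP-seq peaks, the places where DNA pulled down together with a tagged protein piles up after sequencing. Both libraries, biological replicates 2 and 3, come from whole embryos aged 0 to 12 hours of a single transgenic Drosophila melanogaster line in which CG7745 carries GFP at its C-terminus. The precipitation used an anti-GFP antibody according to the description, whereas the antibody field gives CG7745. No second condition and no untagged control sample is among them, and whole embryos mix all tissues, so a peak cannot be assigned to a cell type.

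Actin filaments grow from monomers at one end and lose them at the other, and the products of these genes form, regulate or move along such filaments. Act5C and Act42A encode the cytoplasmic actins, and chic encodes profilin, which binds actin monomers and feeds them to growing ends. The tsr product, cofilin, severs and depolymerises old filaments, while Ena and the formin Dia speed elongation at the growing end. Arp2 and Arp3 are the actin-related subunits of the complex that starts branches, and Myo61F and Myo31DF are class I myosins, motors that link filaments to membranes. In the fly, Myo31DF also sets left-right asymmetry of organs.

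Each gene was examined over its body plus 5 kb upstream of it, in 4 deposited lists. These are the peaks of replicate 2, those of replicate 3, those called on both pooled, and the irreproducible discovery rate (IDR) set. The IDR step judges how well the ranks of peaks agree between replicates. The replicate and pooled lists were of fixed length (30000 pooled peaks), so they reach far down in strength, and the IDR set held 1874. A summit is the base of highest signal in a peak, and its signal is the peak caller's value against a control, on a scale that is not stated. Ranks by signal, with 1 the strongest, were therefore used across lists. Distances are signed, with a minus for upstream of the TSS. Read depth is unknown.

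Of the 10 genes, 6 had at least 1 IDR summit in the window, with 7 IDR summits in all, and 2 (chic and Myo61F) had one within 500 bp of a transcription start site (TSS). Over all protein-coding genes, 14.7% had at least 1 in the same kind of window and 6.32% at a promoter, that is within 500 bp of a TSS. The IDR peaks were used in choosing the genes, so nothing is read from the difference. In the pooled list, 80 summits lay in the 10 windows. All 10 genes had at least 1, against 68.4% of protein-coding genes, and 9 of 10, all but Myo31DF, had one within 500 bp of a TSS, against 46.7%. The 10 genes are longer than most (median 7292 against 2166 bp) and have a median of 2 TSS against 1, which gives a summit more room, and the part of length in these shares was not tested. Of the 80 pooled summits, 23 lay nearer to the TSS of another protein-coding gene. Many of the 80 are weak calls by −log10 q, where q is a false discovery rate and a higher value is stronger evidence. It was 3.56 at the IDR summits and fell to 0.457 at an Act5C summit. At the only Arp3 summit it was 1.28, and at dia all but the strongest had 0.668 or less. Pooled counts and densities are thus of listed summits, not of sites shown to be bound.

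**Figure D1:**
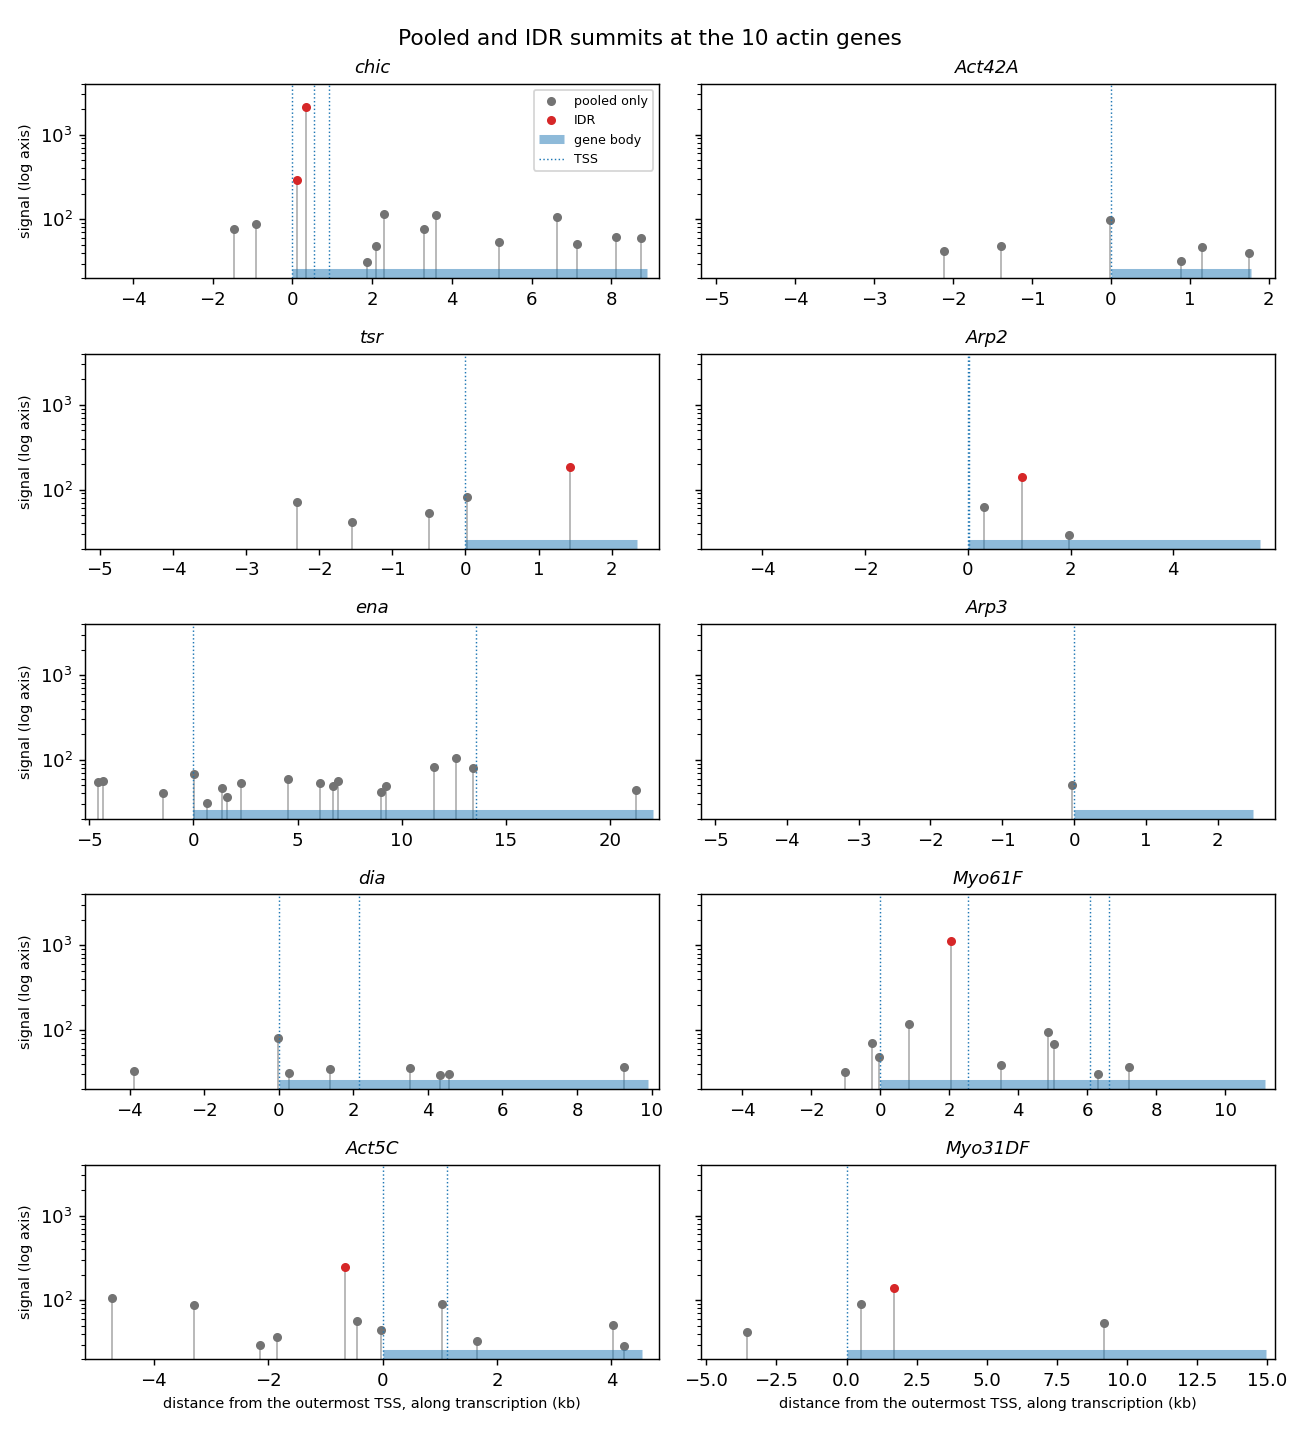
Signal (log axis) of every pooled summit in the window of each gene, by distance in kb from the gene's outermost TSS along the direction of transcription; red points are also IDR summits, the blue bar is the gene body and dotted lines are annotated TSS. The chic and Myo61F summits of 2129.9 and 1121 stand far above the rest, and no other gene exceeds 248.

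The windows of 101 bases centred on the IDR summits of chic, Myo61F, Act5C, Arp2 and Myo31DF are shown as examples of reproducible binding at these genes, chosen among the IDR summits whose windows overlap no annotated exon, and they do not include every such window. For chic it is the stronger of the 2 summits. They are read from the plus strand of build dm6 (RefSeq copy of Release 6), 5′ to 3′, with the summit at base 51. Capitals mark TTAATT or its reverse complement AATTAA. That 6-mer had the largest excess of any 6-mer in the other 1867 IDR windows over windows 500 bp to either side (31.9% against 15.2%) and was picked for that after the data were seen.
chic, chr2L:5980639-5980739: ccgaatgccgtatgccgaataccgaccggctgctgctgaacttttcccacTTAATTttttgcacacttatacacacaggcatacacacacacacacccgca
Myo61F, chr3L:1320491-1320591: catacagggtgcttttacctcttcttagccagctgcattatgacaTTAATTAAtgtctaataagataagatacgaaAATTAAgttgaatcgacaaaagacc
Act5C, chrX:5900155-5900255: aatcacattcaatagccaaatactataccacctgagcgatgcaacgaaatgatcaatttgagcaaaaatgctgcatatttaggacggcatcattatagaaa
Arp2, chrX:16552866-16552966: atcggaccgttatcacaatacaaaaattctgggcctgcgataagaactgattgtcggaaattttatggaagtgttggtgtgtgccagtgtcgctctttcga
Myo31DF, chr2L:10505025-10505125: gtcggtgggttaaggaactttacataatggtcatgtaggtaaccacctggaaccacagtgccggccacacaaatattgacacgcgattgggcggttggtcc

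The 6-mer lay at the summit of the 2 strongest peaks and in none of the other windows of IDR summits. That is 2 of 7 windows (28.6%), near the 31.9% of the other IDR windows. In chic the summit base is the first base of TTAATT. In Myo61F the summit lies in TTAATTAA, which holds TTAATT and AATTAA overlapping by 4 bases, and AATTAA occurs once more 26 bases to the right. Among the other IDR peaks the 6-mer was in 59.2% of 98 windows at ranks 1 to 100. It was in 34.2% at ranks 101 to 500, 34.3% at ranks 501 to 1000 and 26.5% of 872 at ranks 1001 to 1874. The summit base itself fell inside it in 6.12% of windows at ranks 1 to 100 and 2.06% at ranks 1001 to 1874. It was in 17.3% of the 28053 other pooled windows outside the IDR set and in 12 of 73 such windows at the 10 genes (16.4%), and in none of the 12 did the summit base fall inside it. It was in 8.77% of windows centred on the outermost TSS of protein-coding genes. A match is a string of letters and does not show which protein binds there.

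Of 10 listed consensus motifs, searched on both strands in the same windows, few occurred. The Myo61F window held the E-box CAGCTG (in 3.86% of the other IDR windows and 9.34% of TSS windows) and the GATA motif AGATAA (8.73% and 4.14%). Neither overlaps the capitals. The windows of chic, Act5C, Arp2 and Myo31DF held none of the 10. The others searched were the DREF site TATCGATA (1.45% of the other IDR windows, 5.56% of TSS windows), GAGAG (17.2% and 11.5%), CACGTG (1.18% and 1.98%), CAGGTA (2.20% and 1.97%), GGAATG (3.96% and 3.96%), TGANTCA (1.98% and 1.80%), TATAAA (15.4% and 17.0%) and the CArG box of serum response factor (0.321% and 0.344%), a site known from actin genes of vertebrates. The chic window also carries a run of alternating C and A near its right end. Base composition ran from 33.7% G and C in Myo61F to 51.5% in Myo31DF, against a median of 38.6% over the other IDR windows, and chic had 49.5%. For each strongest summit of the 10 genes, 3 stretches of 50 bases taken from the window occurred at a single place on the main arms.

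Profilin's gene carried the fifth strongest reproducible peak of the genome, between its alternative promoters. The chic gene (FBgn0000308, 2L, 5972115 to 5981018, minus strand) has 3 annotated TSS. The outermost serves 3 transcripts, the next lies 537 bp further in and serves 1, and the innermost lies 917 bp in and serves 2. The main summit, at 5980689, was 329 bp downstream of the outermost TSS, in an intron, and 208 bp upstream of the next. Its signal was 2129.9 in the pooled and IDR lists (rank 5), 824 in replicate 2 (rank 5) and 1295 in replicate 3 (rank 6), and the replicate summits lay 7 and 0 bp away. Both replicates thus placed it at nearly the same base and rank.

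A second IDR summit lay 104 bp downstream of the outermost chic TSS, in the 5′ UTR. It had a signal of 288 (IDR rank 271), with 147 in replicate 2 (rank 149) and 319 in replicate 3 (rank 73). The 2 summits share 1 interval of 1448 bp, and only 3 of the 1874 IDR entries (0.16%) lie on an interval at least that wide, these 2 among them. Nearest in rank in the IDR set were a peak near lncRNA:CR44366 (rank 3, signal 3129, -155 bp from its start), one near the FGF receptor gene htl (rank 4, 2399, -839 bp), one at CG12107 (rank 6, 2065, 12 bp) and one with CG42671 as its nearest coding gene (rank 7, 1821, 9082 bp). The likeness is of rank alone.

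The rest of the chic window held weaker summits, and those upstream of the gene lay nearer to eIF4A, which encodes a helicase of translation initiation. Of 14 pooled summits, 12 were outside the IDR set, with signals from 31.5 to 116. Those inside the gene at 1387, 2694 and 5711 bp from the nearest chic TSS had signals of 116, 112 and 107 and were matched in both replicates. The last of these was nearer to a TSS of Ucp4B, at 4531 bp. In all, 6 of the 14 lay nearer to another coding gene, Ucp4B for those inside chic and eIF4A for those upstream. The 2 upstream of all chic TSS had signals of 88.2 and 77.6 and lay at 176 and -115 bp from an eIF4A TSS. The chic window held 1.01 pooled summits per kb, more than 97.8% of protein-coding genes.

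**Figure D2:**
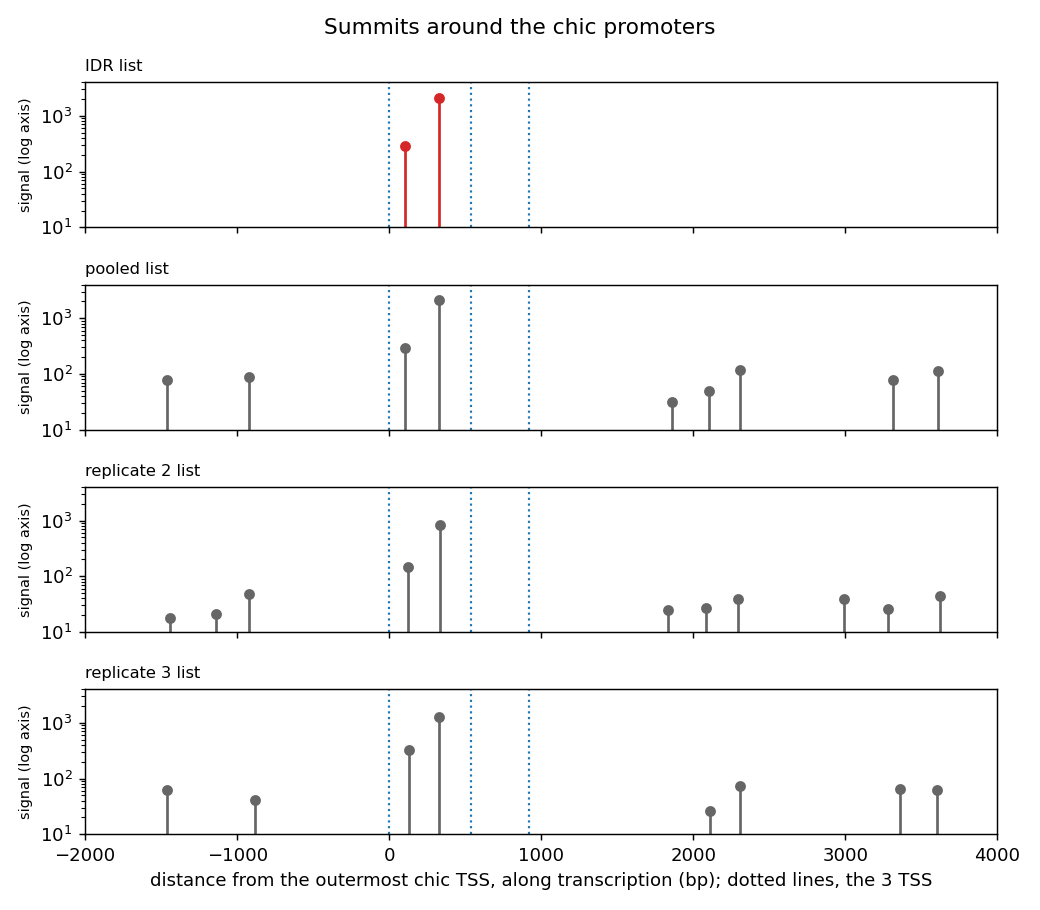
Signal (log axis) of summits in each of the 4 lists, by distance in bp from the outermost chic TSS along transcription, with the 3 TSS as dotted lines. In every list the strongest summit lies between the outermost and the next TSS, with a weaker one beside it.

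The other monomer and filament turnover gene, tsr (FBgn0011726, 2R, 24044453 to 24046805, minus strand), had its IDR summit inside the gene, in an intron 1432 bp downstream of its single TSS. The signal was 185 (rank 760), with 54.1 in replicate 2 (rank 1899) and 125 in replicate 3 (rank 662). The site was the same to within 7 bp, but it ranked lower in replicate 2. At the tsr promoter the pooled list held a summit 17 bp downstream of the TSS with a signal of 81.0 (rank 4541), which ranked 11539 in replicate 2 and 4175 in replicate 3. The other 3 pooled summits of the window, with signals from 40.9 to 72.1, lay nearer to the neighbours sei and gammaSnap1.

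The elongation factors ena and dia had no IDR summit. At ena (FBgn0000578, 2R, 19141632 to 19163705, plus strand), 18 pooled summits had signals from 30.6 to 106. The 3 strongest lay 981, 2017 and 164 bp upstream of its inner TSS, in an intron of the longer transcripts, with signals of 106, 82.2 and 79.7. The first ranked 2541 in the pooled list, 11170 in replicate 2 and 1870 in replicate 3, so the replicates placed it at the same site within 5 bp but in different parts of their lists. The outer ena promoter had a summit 37 bp downstream with a signal of 67.2 (rank 6716). At dia (FBgn0011202, 2L, 20758144 to 20768053, plus strand), the strongest of 8 pooled summits lay 23 bp upstream of the outer TSS with a signal of 79.5 (rank 4714). Replicate 3 had it at rank 2883, and the nearest replicate 2 summit was 304 bp away. None of the 8 dia summits was matched within 100 bp in both replicates.

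The cytoplasmic actin genes differed in their peaks. Upstream of Act5C (FBgn0000042, X, 5900861 to 5905399, plus strand) an IDR summit had a signal of 248 (rank 380), with 91.0 in replicate 2 (rank 505) and 160 in replicate 3 (rank 371), at sites within 3 bp. It lay 656 bp upstream of the outer Act5C TSS and 216 bp upstream of the start of lncRNA:CR45668, a noncoding gene read in the other direction, so it is nearer to that start. At the Act5C TSS themselves the pooled summits were weaker, with 44.7 at 20 bp upstream of the outer TSS and 90.8 at 75 bp upstream of the inner one. The window held 1.15 pooled summits per kb, more than 99.2% of protein-coding genes, and 7 of its 11 pooled summits were matched in both replicates.

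Act42A (FBgn0000043, 2R, 6013910 to 6015689, minus strand) had no IDR summit, and its strongest pooled summit, 11 bp upstream of the single TSS, had a signal of 98.3 (rank 3004). The replicates differed there. In replicate 2 the matched summit had a signal of 62.1 (rank 1358), and in replicate 3 it had 27.9 (rank 16565), below that list's median of 29.5. The strongest replicate 3 summit of the window lay 144 bp downstream of the TSS with a signal of 48.2 (rank 5582). The coding sequences of Act5C and Act42A, 1128 bp each without the stop codon, are 86.2% identical and their proteins differ at 2 residues. How reads that match both genes were placed is not given in the sources used here. Of the pooled summits, 2 at Act42A and none at Act5C lay in coding sequence, and they were the only 2 in coding exons among the 80.

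The Arp2/3 complex genes had few summits. In Arp2 (FBgn0011742, X, 16548290 to 16553968, minus strand) the IDR summit lay in an intron, 1035 bp downstream of the nearest TSS, with a signal of 139 (rank 1395). Replicate 3 placed it 8 bp away with a signal of 87.3 (rank 1504). The strongest replicate 2 summit of the window, with a signal of 63.4 (rank 1299), lay 111 bp away, so Arp2 held the only IDR summit of the 7 with no match within 100 bp in both replicates. Arp3 (FBgn0262716, 3L, 8113407 to 8115902, minus strand) had a single pooled summit, 30 bp upstream of its TSS, with a signal of 50.5 (rank 11854). Its match in replicate 3 lay 99 bp away at rank 25063, and replicate 2 had none within 100 bp. At 0.133 pooled summits per kb, Arp3 was denser than 37.4% of protein-coding genes, and Arp2, at 0.281, was denser than 54.4%.

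Of the class I myosins, Myo61F carried a peak among the strongest of the genome and Myo31DF a much weaker one, in the lower part of the IDR set. Myo61F (FBgn0010246, 3L, 1318480 to 1329617, plus strand) has 4 annotated TSS of 1 transcript each. Its IDR summit, at 1320541, lay in an intron, 2061 bp downstream of the outermost TSS and 488 bp upstream of the next. The signal was 1121 (rank 17), with 451 in replicate 2 (rank 16) and 681 in replicate 3 (rank 18). The replicate 3 summit lay 17 bp away, at 505 bp upstream of that TSS, so the count of genes bound at a promoter drops to 1 when the strongest 1874 peaks of replicate 3 take the place of the IDR set. With those of replicate 2 it is 3, since Act42A then joins chic and Myo61F. Nearest in IDR rank were peaks at Cpsf5, a gene of mRNA 3′ end processing (rank 15, 1158, 18 bp), at the serpin gene Spn42De (rank 16, 1125, 156 bp), near eff, which encodes a ubiquitin-conjugating enzyme (rank 18, 1085, 1609 bp), and near zfh2, a homeobox gene (rank 19, 1066, 5927 bp).

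At Myo31DF (FBgn0086347, 2L, 10491814 to 10506779, minus strand) the IDR summit lay in an intron 1704 bp downstream of the single TSS. The signal was 141 (rank 1362), with 62.3 in replicate 2 (rank 1345) and 82.5 in replicate 3 (rank 1713), and both replicates placed it at the same base. In the IDR and pooled lists the peak was 111 bp wide, narrower than most (96.2% of IDR peaks were at least as wide). It was 396 bp wide in replicate 2 and 384 bp in replicate 3, the median widths of those lists, so neither replicate shared the narrow width. The next summit, 520 bp downstream of the TSS in the 5′ UTR and 42 bp upstream of the start of the antisense RNA asRNA:CR44224, had a signal of 90.1 in the pooled list (rank 3607), ranking 24984 in replicate 2 and 3712 in replicate 3. Replicate 2 also had a summit 2 bp downstream of the TSS, with a signal of 44.3 (rank 3056). The nearest replicate 3 summit lay 524 bp from it, and the pooled list had none within 500 bp of the TSS. With 0.2 summits per kb, Myo31DF was denser than 47.8% of protein-coding genes.

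**Figure D3:**
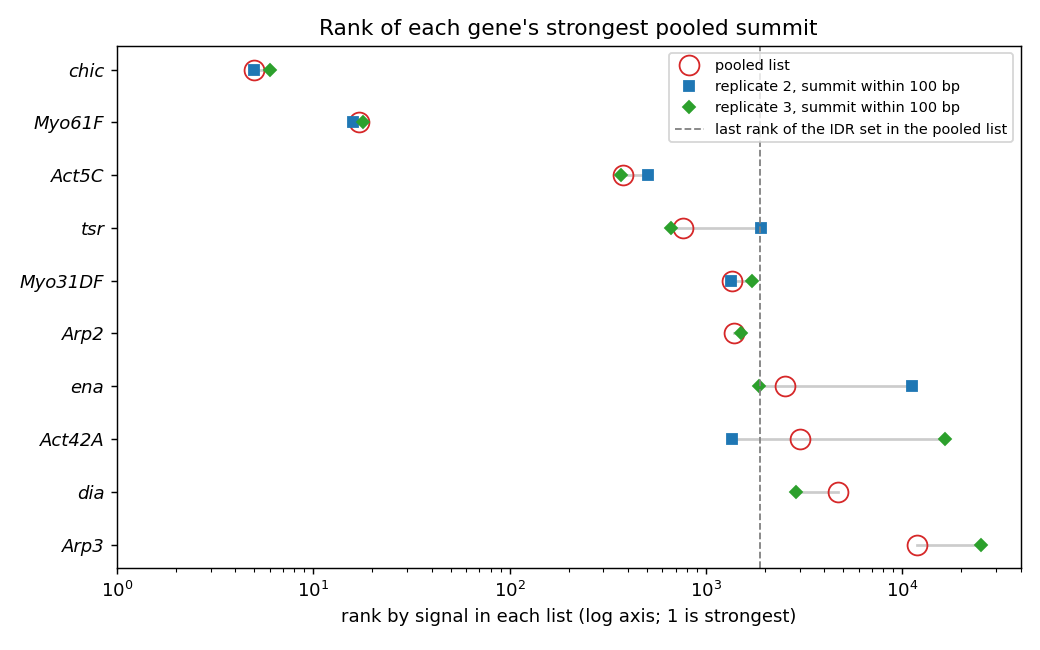
Rank by signal (log axis, 1 strongest) of each gene's strongest pooled summit in the pooled list and of the summit within 100 bp in each replicate list; a missing square or diamond means no summit within 100 bp, and the dashed line is the last rank of the IDR set. The marks for chic and Myo61F nearly coincide, at ranks 5 to 6 and 16 to 18, while those for ena and Act42A spread over ranks 1358 to 16565.

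By the signal of the strongest pooled summit, the genes ran chic (2129.9), Myo61F (1121), Act5C (248), tsr (185), Myo31DF (141), Arp2 (139), ena (106), Act42A (98.3), dia (79.5) and Arp3 (50.5). Neighbours in the middle of that order do not stand apart. Replicate 2 ranked the summit of Myo31DF above that of tsr, and replicate 3 ranked tsr above Myo31DF. Similarly, replicate 2 ranked Act42A above ena and replicate 3 the reverse. Both replicates kept the order of chic, Myo61F and Act5C, and kept these above the others. The IDR set ended at a signal of 122. The weakest of the 7 inside it was that of Arp2 at 139, and the strongest just outside were in Myo61F at 119 and in chic at 116 and 112.

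The match between replicates was counted inside and outside the IDR set, which itself came from a step that judges agreement between them. At these genes the set also coincided with the strongest pooled summits, so the split is one of strong against weak signal. Of the 7 IDR summits, 6 were matched within 100 bp in both replicates, against 94.1% of all IDR summits. Of the 73 weaker pooled summits of the 10 genes, 31 were (42.5%), and of all 80, 37 were (46.3%), against 33% over the whole pooled list. Both replicates were called against the same control alignment, and its part in these matches was not tested. Across the 37 matched summits, the signals of replicates 2 and 3 had a Spearman correlation of 0.434, and of 0.56 across all 9890 matched pooled summits. These are descriptions across sites that share 2 libraries and 1 control. The 37 came from 8 genes, with 10 at chic, 7 each at ena and Act5C, 4 each at tsr and Myo61F, 3 at Myo31DF and 1 each at Act42A and Arp2.

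**Figure D4:**
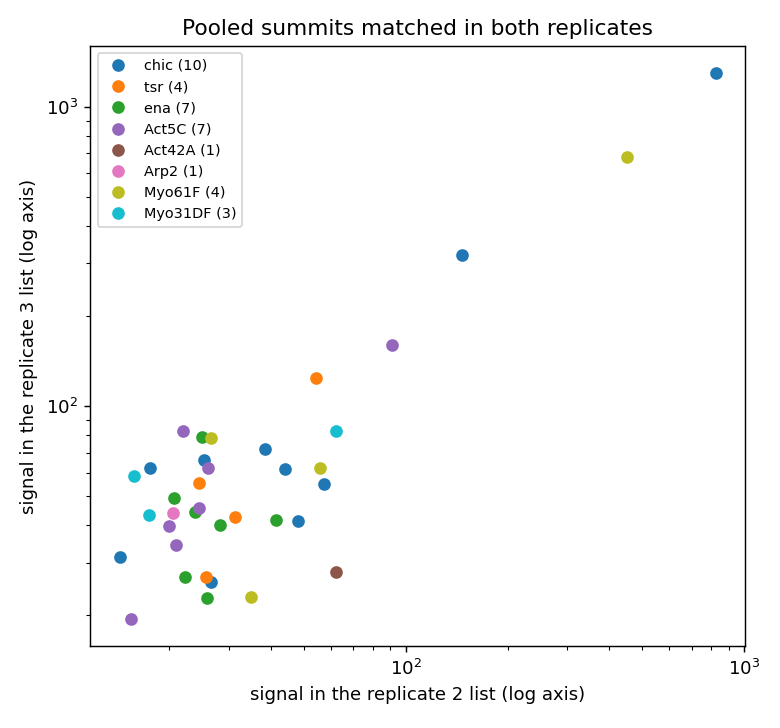
Signal of the 37 matched summits in the replicate 2 list (x, log axis) against the replicate 3 list (y, log axis), coloured by gene with the number of summits in parentheses. The 4 summits of highest signal in replicate 2, at chic, Myo61F and Act5C, fall in the same order in both, while the rest form a cloud.

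The places of summits were counted at these genes only. Of the 7 IDR summits, 5 were in introns, 1 in a 5′ UTR and 1 upstream. None was within 100 bp of a coding TSS (nearest 104 bp), against 17.7% of all IDR summits. Their median distance to a coding TSS was nevertheless shorter, 656 bp against 1133.5 bp, and 3 of the 7, the 2 at chic and that at Myo61F, lay within 500 bp. Since chic and Myo61F were chosen with their promoter peaks known, and the windows follow genes, nothing is read from these distances. Of the 73 weaker pooled summits, 10 were within 100 bp of a coding TSS (13.7%, against 10.7% of all pooled summits outside the IDR set). They include summits at the starts of Act42A, dia, Arp3, tsr, ena, Act5C and Myo61F, with signals from 44.7 to 98.3. The windows follow genes here too, so nothing is read from the difference in share. Over all 80 pooled summits, 38 lay in introns, 25 upstream, 8 in 3′ UTRs, 7 in 5′ UTRs and 2 in coding exons. Without the same counts over all IDR or pooled summits, these places are not read as particular to these genes.

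Across a wider list of actin genes, IDR summits at promoters occurred in several roles. They were weaker than those of chic and Myo61F, which follows from choosing these 2 with their strong promoter peaks known. Of 88 genes of actin filaments, their regulators and motors, 12 had an IDR summit at a promoter (13.6%), against 6.32% of all protein-coding genes. Without the 10 genes above, 10 of 78 did so (12.8%, exact 95% interval 6.32 to 22.3%). The lower end of this interval lies at the share of all protein-coding genes. The list was drawn up with earlier results of these data known, so the interval is no test of a difference. The list genes are longer than the average gene (median 7578 against 2166 bp) and have more TSS (median 2 against 1), and the part of this was not tested. With the IDR peaks above the set's median signal alone, 4 of 88 genes were counted (4.55%), 2 of them chic and Myo61F, and 2 of 78 without the 10 genes (2.56%), against 3.24% of all protein-coding genes. A pooled summit at a promoter was found for 71 of 88 (80.7%), against 46.7%.

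Among formins and elongation factors, 2 of 8 had an IDR summit at a promoter, both formins, Fhos (157, -234 bp) and Frl (123, -42 bp). Of the crosslinkers and tropomyosins, 3 of 10 were: the spectraplakin gene shot (157, -22 bp), the filamin gene cher (148, -138 bp) and the tropomyosin gene Tm1 (133, -154 bp). Of the myosins outside class I, 2 of 9 were: zip, the non-muscle myosin II heavy chain (130.1, -131 bp), and jar, myosin VI (128, 11 bp). None of the 6 actins, 8 subunits of the Arp2/3 complex, 9 of its activators, 5 capping and severing genes or 7 membrane and adhesion linkers had an IDR summit at a promoter. Counted over the body and 5 kb upstream, 20 of 88 genes had one (22.7%), and 14 of 78 without the 10 genes (17.9%), against 14.7% of all protein-coding genes. Outside the 10 genes, those with none at a promoter were GMF, a cofilin-related debranching factor (255), the membrane linker Moe (217), the pointed-end capping gene tmod (214) and the WASP family gene Whamy (122). The Moe summit lay 515 bp from a TSS, just outside the cut of 500 bp. Those of GMF, tmod and Whamy lay farther out, at -4216, 3520 and -3711 bp from a TSS of their gene.

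**Figure D5:**
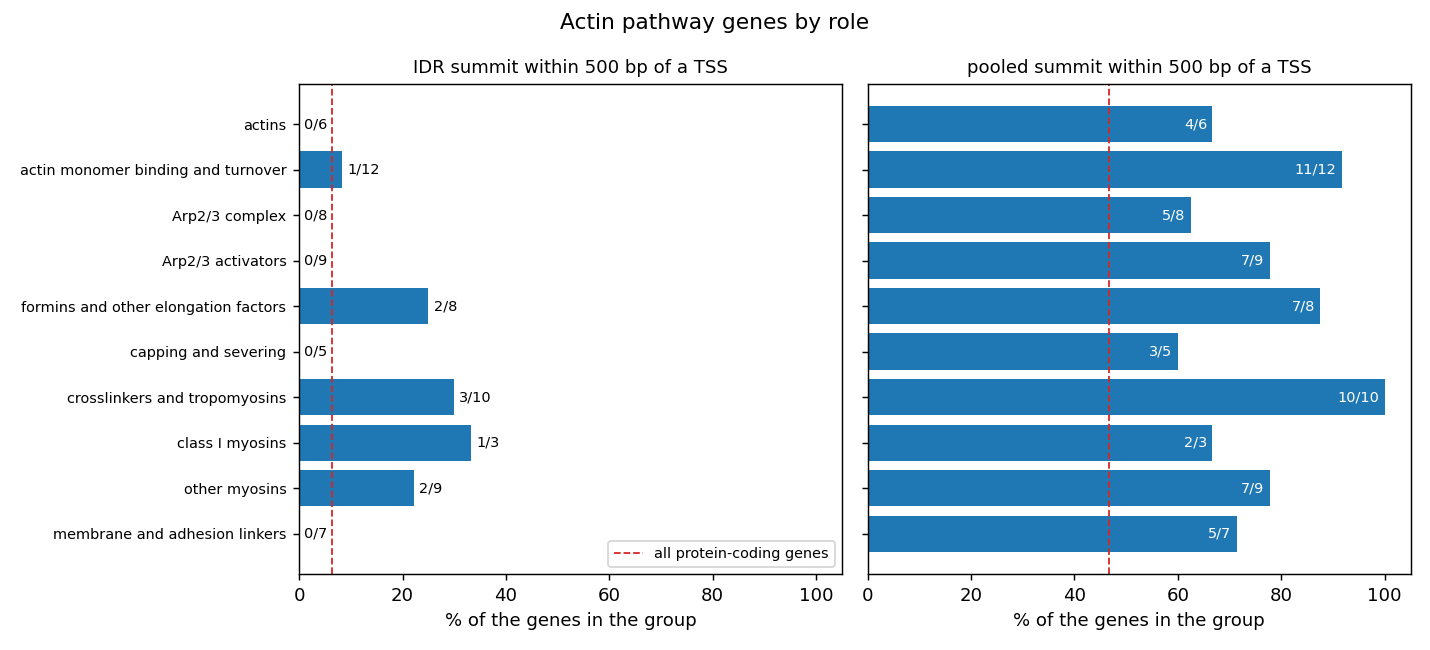
Share of genes (%) with an IDR summit (left) or a pooled summit (right) within 500 bp of a TSS, by role for the role groups described here from the list of 88 actin genes, with the numbers of genes on the bars and the share of all protein-coding genes as a dashed line. Groups hold 3 to 12 genes, so a single gene moves a bar far.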

How the data were processed

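Both samples were used as 1 group (n = 2) with the replicate numbers of the labels. Values were taken as the authors deposited them. Per the labels' list of deposited files, peaks were called on dm6 for each replicate and for both pooled, against 1 control alignment, and all 3 lists entered the IDR step. The sources used here do not give the aligner, the peak caller or the IDR cutoff. The deposited signal has no stated scale, and the deposited −log10 q is 3.56, the highest value of the pooled list, at all 7 IDR summits of the genes, so ranks by signal were used, without mitochondrial peaks.

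Genes came from Ensembl release 115 (FlyBase 6.54), dm6 coordinates, with transposable elements left out. A window was the gene body plus 5000 bp upstream, a promoter 500 bp to either side of any TSS of the gene, and a match a summit within 100 bp. The interval given is exact (Clopper-Pearson) and covers the counting of genes only. Of 89 entries in the actin list, 88 matched, 1 of them by an older name. The members, lists and motifs were chosen with earlier results of these data known. The named genes are the 10, those at their IDR summits, list genes with an IDR summit at a promoter (except 1 role group, counted in the totals over the list but not reported here) and the IDR peaks up to 2 ranks away from chic and Myo61F; GMF, Moe, tmod and Whamy were named after their values were seen. The window counts were tested on 200 simulated summits placed 300 bp upstream of a start, of which 200 were found. Counting was done in Python 3.11.15 with pandas 2.3.3 and NumPy 2.4.6, the interval with SciPy 1.17.1 and figures with matplotlib 3.10.9.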

Additional observations from a re-analysis of the deposited data

How the results depend on the processing

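Of 40 recounts under other settings, 35 stayed within 1.5 times the reported count. The exceptions were these. Promoters within 250 bp left 1 of the 10 genes with an IDR summit at a promoter, and replacing the IDR set by as many of the strongest peaks of 1 replicate gave from 1 to 3 (1 without replicate 2 and 3 without replicate 3). The IDR peaks above the median signal gave 4 actin pathway genes with a promoter summit in place of 12. The pooled peaks above their median signal left 53 summits in the windows, and a match within 500 bp gave 60 matched in both replicates. The cause was not tested beyond what each setting changes by its construction. Counting only summits nearest to the gene's own TSS, an alternative chosen after seeing the data, kept all 7 IDR summits and 57 of the 80 pooled ones. Of 17 ranks of the genes' strongest summits in a replicate list, 11 were within 1.5 times the pooled rank, and the 6 that were not belong to tsr, ena, dia, Act42A and Arp3. The 17 leave out dia, Arp2 and Arp3 in replicate 2, where no summit within 100 bp gave a rank. No paired analysis was possible because the series has 1 group. With depth unknown, a gene without an IDR summit is not shown to be unbound.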
